A study of Mus musculus with 25 samples.

Results

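Translation initiation and elongation factors were described as the 65 genes, of 14103 in the single-cell gene table, whose symbols begin with Eif or Eef followed by a digit. They were grouped by the step of translation they serve: 5 eIF1 and eIF1A genes, 6 eIF2 genes, 5 eIF2B genes, 4 eIF2 kinases, 14 eIF3 genes, 10 core eIF4 genes, 3 eIF4 regulators, Eif4a3, 5 eIF5 and eIF6 genes, 6 elongation factors, 5 enzymes that modify elongation factors, and Eif2c5. The symbols also took in genes that are not translation factors in the strict sense. Eif2c5 carries an older name of the Argonaute family, Eif4a3 is best known as a core protein of the exon junction complex, and Eef1e1 belongs to the complex of aminoacyl-tRNA synthetases.

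The cells came from testes of mice at postnatal day 10 and had been sorted for a 4N DNA content, which is found in cycling cells after replication and in meiotic prophase. KO mice were Ythdc2 knockouts; YTHDC2 is an RNA helicase known to be required for germ cells to progress into meiosis. WT mice carried the intact gene. The labels do not say which part of Ythdc2 the KO allele lacks, nor how many animals went into a library, and sample titles mention embryo although the age label, followed here, is P10. Mutant lines were, per the labels, made on a hybrid background of C57BL/6 and DBA/2. There were 2 KO libraries, KO A with 1522 cells and KO B with 1855 cells, and 1 WT library with 1151 cells.

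Initiation begins when eIF2, bound to GTP, brings the initiator tRNA to the small ribosomal subunit, where eIF3, eIF1 and eIF1A hold the complex open for scanning. The eIF4 factors bind the cap of the mRNA and unwind its leader, eIF5 and eIF5B help release eIF2 and join the subunits, and eIF2B reloads eIF2 with GTP. In elongation, eEF1A delivers each aminoacyl-tRNA, the eEF1B subunits recharge eEF1A, and eEF2 moves the ribosome by a codon. Male germ cells are known to store and control mRNAs at the level of translation as they pass through meiosis.

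The authors' cell clusters were used. They named cluster 1 undifferentiated spermatogonia, called cluster 2 differentiating spermatogonia, and gave cluster 3 to leptotene-zygotene spermatocytes; clusters 4 and 5 carry names that mix differentiating spermatogonia with leptotene-zygotene cells. Cluster 3 held 427 WT cells and 0 KO cells. Cluster 4 held 592 KO A, 441 KO B and 24 WT cells, and cluster 5 held 335 KO A, 510 KO B and 1 WT cell. For clusters 3 to 5, cluster and genotype therefore cannot be told apart. Depth was 18089957 UMIs in KO A, 25447581 in KO B and 16342955 in WT. Scaled to 1000000 UMIs (CPM), Ythdc2 had 47.0 in KO A and 42.6 in KO B, against 196 in WT. The median mitochondrial share of a cell's UMIs was 9.11% in KO A and 6.64% in KO B, against 5.59% in WT. No cell barcode was found in more than 1 library (0 shared once suffixes were removed).

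KO and WT were compared on normalised UMIs per cell, the mean over a library's cells of the UMI count divided by the authors' size factor. The test was limma on log2(value + 0.01) over all genes with a mean of at least 0.05, and calls were made below an adjusted p of 0.05. With 1 WT library only the pair of KO libraries gave a spread, and nothing says that the libraries are separate animals. A permutation of the 3 library labels could not give a p below 0.333. Of the 65 members, 62 were tested in cluster 2 and in clusters 3 to 5; Eif2ak2, the kinase PKR, Eif4e3 and Eif2c5 were below the minimum. Near copies such as Eif2s3x and Eif2s3y, Eif3j1 and Eif3j2, Eif1a and Eif1ax, Eif1 and Eif1b, Eif4a1 and Eif4a2, Eif5a and Eif5a2, and Eef1a1 with its processed pseudogenes can share reads, so how UMIs were split within them is uncertain.

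In clusters 3 to 5, KO cells held more of the eIF4 genes Eif4ebp1 and Eif4g1 and less of the eIF2 subunit genes Eif2s1, Eif2s2 and Eif2s3y, of several eIF3 subunits and of most elongation factors than WT cells. Across the 62 tested members, 19 were called higher in KO and 25 lower, and 18 did not pass. Over all 9299 genes tested, 66.5% were called in either direction, 37.4% higher and 29.1% lower. The members' share of calls was thus close to that of all genes. Their median log2 difference was -0.017, beside 0.076 over all genes, and their median absolute difference was 0.48, beside 0.47. In this comparison limma took its spread wholly from the trend across genes, so a gene's own scatter between KO A and KO B did not enter its p. DESeq2 lost 11 of the 44 calls (Eif2d, Eif3j1, Eif2s3x, Eif1ax, Eif4g3, Eif2b4, Eif2ak3, Eif3g, Eif1b, Eef1akmt4 and Eif3a), and edgeR lost 6 (Eif2d, Eif2b4, Eif3g, Eef1a1, Eif1b and Eif3a). The 8 leptotene-zygotene markers summed to between 2125 and 3327 CPM in KO clusters 4 and 5, against 4707 CPM in WT cluster 3; none of the 8 was at 0. The part of this difference, or of the mitochondrial share, in the members' values was not tested.

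**Figure D1:**
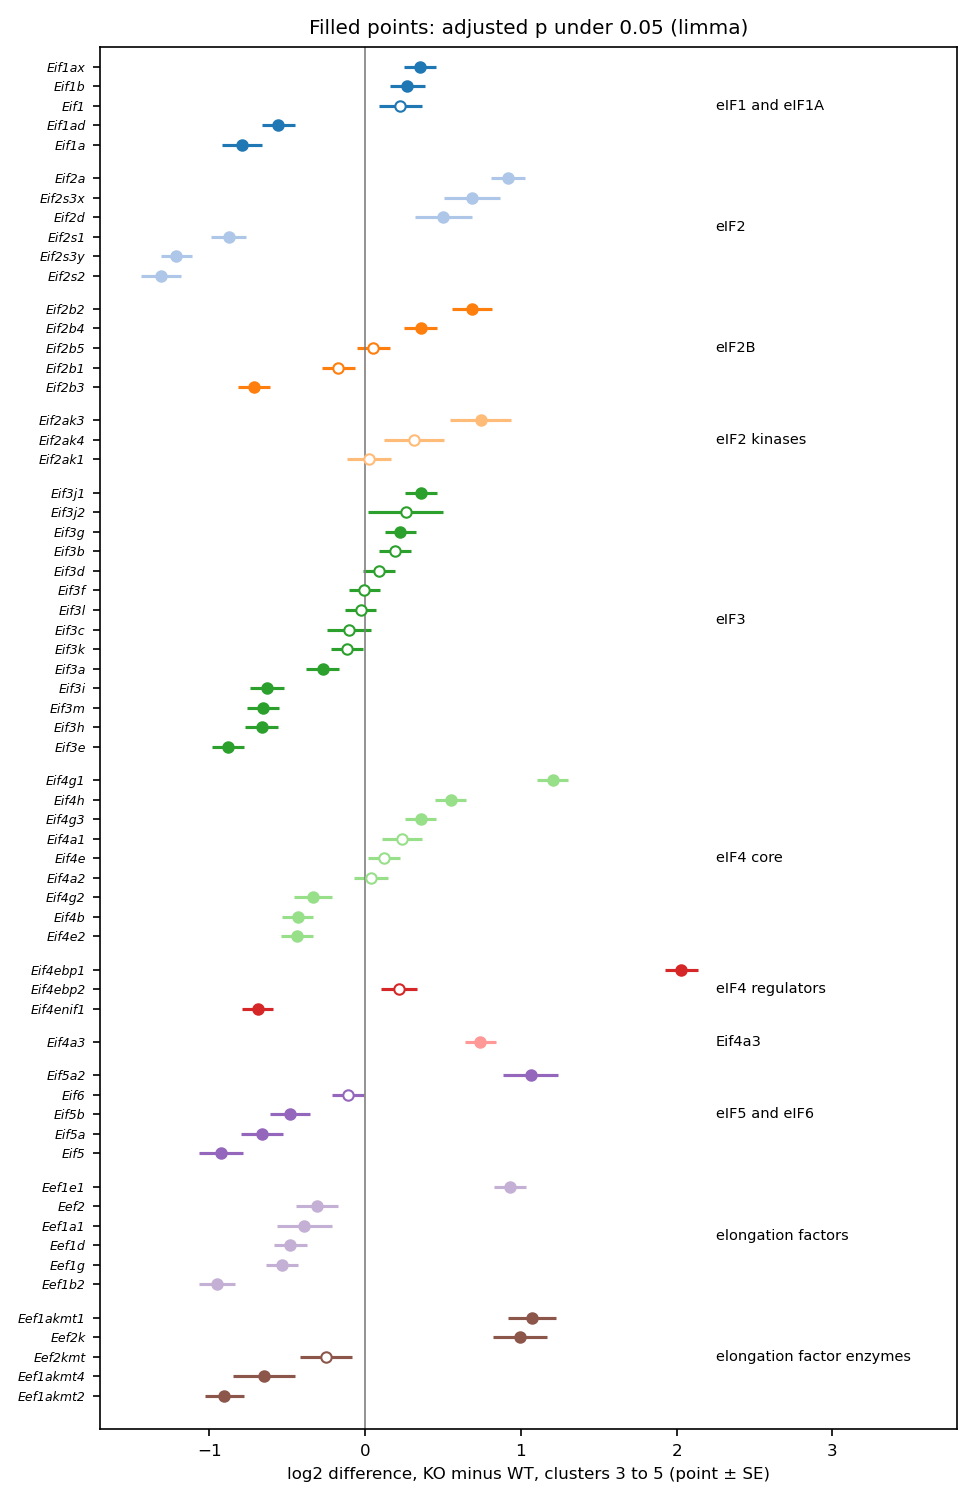
Difference between KO and WT in clusters 3 to 5 for the 62 tested members, as log2 of normalised UMIs per cell plus 0.01 on the horizontal axis; each point is a member with its standard error, colours separate the groups named at the right, and filled points passed limma at an adjusted p under 0.05. Eif4ebp1 lies farthest to the right at 2.03 and Eif2s2 farthest to the left at -1.31, and 44 of the 62 points are filled.

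The eIF2 genes moved in both directions. All 6 were called, 3 higher and 3 lower. Of the 4 genes that encode subunits of the eIF2 complex, 3 were called lower and 1, Eif2s3x, higher (median -1.04). Eif2s2, the beta subunit, had 5.16 and 5.49 normalised UMIs per cell in KO A and KO B, against 13.2 in WT. Both KO libraries lay far below WT, and the log2 difference was -1.31 ± 0.13 (SE; limma, adjusted p = 9.41e-23). Eif2s1, the alpha subunit that the eIF2 kinases phosphorylate, had 3.05 and 3.39 in KO A and KO B, against 5.92 in WT, a log2 difference of -0.88 ± 0.11 (limma, adjusted p = 1.03e-14). Its KO libraries also lay close together and below WT. The gamma subunit is encoded by a gene on the X chromosome, Eif2s3x, and by a near copy on the Y chromosome, Eif2s3y, which is known to be needed for spermatogonial proliferation in mice. Eif2s3y had 1.13 and 1.27 in KO A and KO B, against 2.79 in WT (log2 difference -1.21 ± 0.10, limma, adjusted p = 5.99e-32). Eif2s3x had 0.206 and 0.211 in KO A and KO B, against 0.126 in WT (log2 difference 0.69 ± 0.18, limma, adjusted p = 0.000308). The X-linked and Y-linked copies thus differed from WT in opposite directions. The call of Eif2s3x was lost with DESeq2 and when KO cluster 4 alone was set against WT cluster 3. Eif2a, a separate factor that can also bring initiator tRNA, had 0.926 and 0.938 in KO A and KO B, against 0.489 in WT (log2 difference 0.92). Eif2d, which serves non-canonical initiation and recycling, was the third gene called higher, with 0.208 and 0.181 in KO A and KO B, against 0.134 in WT.

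Promoters are shown for the eIF2 subunits and for Eif4g1, since the subunit genes differed from WT in both directions and Eif4g1 was called in cluster 2 as well as in clusters 3 to 5. Each runs from 250 bases before to 30 bases after a RefSeq start (GRCm38.p6). Eif2s1 lies on chr12:78861822-78862101 (plus strand), Eif2s2 on chr2:154892877-154893156 (minus strand), Eif2s3x on chrX:94212622-94212901 (minus strand), Eif2s3y on chrY:1010345-1010624 (plus strand) and Eif4g1 on chr16:20672477-20672756 (plus strand). Capitals mark matches, on either strand, to CACGTG, the E-box, to CNCCTCAG, the motif known for the meiotic activator STRA8, or to GCGGGAA, an E2F-type motif.
Eif2s1: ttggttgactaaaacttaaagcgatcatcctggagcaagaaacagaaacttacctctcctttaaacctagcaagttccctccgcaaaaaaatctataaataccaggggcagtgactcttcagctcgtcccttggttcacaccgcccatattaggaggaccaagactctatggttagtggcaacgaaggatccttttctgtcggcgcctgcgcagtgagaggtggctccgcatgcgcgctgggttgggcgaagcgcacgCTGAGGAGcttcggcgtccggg
Eif2s2: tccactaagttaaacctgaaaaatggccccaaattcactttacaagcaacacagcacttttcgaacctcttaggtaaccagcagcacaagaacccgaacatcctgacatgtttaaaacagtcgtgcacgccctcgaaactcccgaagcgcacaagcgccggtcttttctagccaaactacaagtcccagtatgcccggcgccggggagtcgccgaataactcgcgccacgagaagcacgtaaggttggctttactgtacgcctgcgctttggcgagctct
Eif2s3x: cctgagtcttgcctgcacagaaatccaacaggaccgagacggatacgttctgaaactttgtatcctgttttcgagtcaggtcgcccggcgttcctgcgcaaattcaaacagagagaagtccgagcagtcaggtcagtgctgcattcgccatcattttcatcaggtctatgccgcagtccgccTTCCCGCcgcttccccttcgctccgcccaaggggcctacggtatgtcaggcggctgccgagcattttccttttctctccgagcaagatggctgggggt
Eif2s3y: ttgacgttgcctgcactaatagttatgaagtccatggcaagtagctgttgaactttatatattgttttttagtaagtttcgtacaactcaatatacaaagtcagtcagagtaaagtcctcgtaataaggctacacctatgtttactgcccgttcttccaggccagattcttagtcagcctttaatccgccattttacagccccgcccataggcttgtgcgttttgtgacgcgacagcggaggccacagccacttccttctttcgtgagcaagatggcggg
Eif4g1: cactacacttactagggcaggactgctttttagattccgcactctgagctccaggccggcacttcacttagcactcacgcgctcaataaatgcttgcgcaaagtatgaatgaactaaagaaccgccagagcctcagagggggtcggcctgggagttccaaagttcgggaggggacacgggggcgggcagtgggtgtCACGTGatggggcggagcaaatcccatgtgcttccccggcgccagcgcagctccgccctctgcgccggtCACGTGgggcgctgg

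Eif2s1 held 1 STRA8-type match and Eif2s3x 1 E2F-type match, while Eif4g1 held CACGTG at 2 places. The windows of Eif2s2 and Eif2s3y held none of these letters. Of the 52 members with a promoter in the RefSeq table, 13 (25%) held CACGTG, beside 11.3% of all 10684 genes of the gene table with a promoter there. They included Eef2, Eif3a, Eif3f, Eif4a1, Eif4e, Eif4g1, Eif4h and Eif5a. CNCCTCAG was found in 4 members (7.69%), beside 10.2% of all genes. GCGGGAA was also found in 4 members (7.69%), beside 9.44% of all genes. A start at C followed by at least 4 pyrimidines, the form of the terminal oligopyrimidine tract of many translation genes, was found in 3 members (5.77%: Eif2c5, Eif2s3x and Eif3f), beside 3.01% of all genes. These are matches of letters and were not tested against the expression values.

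Calls were fewer around eIF2. Of the 5 eIF2B subunits, Eif2b2 (0.69) and Eif2b4 (0.36) were called higher in KO, Eif2b3 (-0.71) was called lower, and Eif2b1 (-0.17) and Eif2b5 (0.054) did not pass; the values are log2 differences. Eif2b3 had 2.15 and 2.02 normalised UMIs per cell in KO A and KO B, against 3.41 in WT. Among the kinases, Eif2ak3, the endoplasmic reticulum stress kinase PERK, had 0.153 and 0.165 in KO A and KO B, against 0.0906 in WT (log2 difference 0.74 ± 0.20, limma, adjusted p = 0.000329). Its KO values both lay above WT, at a low level in each library. Eif2ak1, the heme-regulated kinase, had 0.343 and 0.372 in KO A and KO B, against 0.351 in WT, so that WT lay between the KO libraries. Eif2ak4, the kinase GCN2 that senses uncharged tRNA, did not pass (0.31 ± 0.19).

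The eIF1A genes Eif1a and Eif1ax differed from WT in opposite directions. Eif1a fell in KO to 0.395 and 0.391 normalised UMIs per cell in KO A and KO B, against 0.685 in WT (log2 difference -0.79 ± 0.13, limma, adjusted p = 3.58e-09). Its X-linked relative Eif1ax rose to 3.25 and 3.52 in KO A and KO B, against 2.64 in WT (log2 difference 0.35 ± 0.10, limma, adjusted p = 0.00154). The calls of Eif1ax and Eif1b, and those of Eif2d and Eif3g, were lost when KO cluster 4 alone was set against WT cluster 3. Eif1b was called higher by 0.27 ± 0.11, and Eif1, which guards the fidelity of the start codon, did not pass, with 8.82 and 9.22 in KO A and KO B, against 7.70 in WT. Eif1ad, a gene with an eIF1A domain, was called lower (-0.56).

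The eIF3 complex, the scaffold on the small subunit, showed differences in some subunits and not in others. Of 14 genes, 5 were called lower (Eif3e -0.88, Eif3h -0.66, Eif3m -0.65, Eif3i -0.63 and Eif3a -0.27), 2 were called higher (Eif3j1 0.36 and Eif3g 0.23) and 7 did not pass. Eif3e had 2.10 and 2.40 normalised UMIs per cell in KO A and KO B, against 4.15 in WT (limma, adjusted p = 1.25e-16). Eif3h had 2.11 and 2.54 in KO A and KO B, against 3.67 in WT. Both KO libraries were below WT for each of these genes. Eif3c, a core subunit, had 9.26 and 8.79 in KO A and KO B, against 9.70 in WT, and did not pass (-0.10 ± 0.14). For Eif3f and Eif3l the WT value lay between KO A and KO B. For Eif3a the sign turned (0.024) when KO cluster 5 alone was set against WT cluster 3. The median over the 14 genes was -0.067 on the log2 scale.

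Among the cap-binding factors, the regulator Eif4ebp1 showed the largest difference of the 62 tested members. This small protein binds eIF4E and keeps it from the scaffold eIF4G unless mTORC1 phosphorylates it. Eif4ebp1 had 1.62 and 1.63 normalised UMIs per cell in KO A and KO B, against 0.390 in WT. The KO libraries nearly coincided, 4.17-fold above WT (log2 difference 2.03 ± 0.10, limma, adjusted p = 3.33e-80). Its relative Eif4ebp2 had 0.640 and 0.722 in KO A and KO B, against 0.584 in WT, and did not pass (0.22 ± 0.12). Eif4enif1, which binds eIF4E and carries it into the nucleus, was called lower, with 1.38 and 1.25 in KO A and KO B, against 2.13 in WT. Thus the binding partners of eIF4E did not move as one.

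Of the 9 core eIF4 genes tested, 3 were called higher, 3 lower and 3 did not pass. Eif4g1, the main scaffold between cap and ribosome, had 1.88 and 1.78 normalised UMIs per cell in KO A and KO B, against 0.788 in WT (log2 difference 1.20 ± 0.10, limma, adjusted p = 3.40e-31). The KO libraries lay close together and well above WT. Its relatives split: Eif4g3 was called higher (0.36) and Eif4g2, which lacks the eIF4E-binding part, was called lower (-0.33). Eif4h, a helper of the helicase, was called higher (0.55), and Eif4b, another such helper, was called lower (-0.43). Eif4e2, a cap-binding protein linked to repression, was called lower (-0.44). The cap-binding Eif4e had 2.07 and 2.30 in KO A and KO B, against 2.01 in WT, and did not pass (0.12 ± 0.10). Neither did the helicase genes Eif4a1, with 6.43 and 7.56 in KO A and KO B, against 5.91 in WT, and Eif4a2, with 0.774 and 0.874 in KO A and KO B, against 0.802 in WT. Eif4a3 was called higher, with 2.63 and 2.97 in KO A and KO B, against 1.67 in WT (log2 difference 0.74 ± 0.10, limma, adjusted p = 1.88e-12).

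Of the 5 eIF5 and eIF6 genes, Eif5, Eif5a and Eif5b were called lower, Eif5a2 was called higher and Eif6 did not pass. Eif5, which triggers GTP hydrolysis by eIF2, had 7.56 and 7.39 normalised UMIs per cell in KO A and KO B, against 14.2 in WT (log2 difference -0.93 ± 0.14, limma, adjusted p = 3.35e-10). Eif5b, which joins the subunits, differed by -0.48, and Eif6, which keeps the large subunit free, by -0.11 ± 0.10. Eif5a, the hypusine-carrying factor, had 6.34 and 6.66 in KO A and KO B, against 10.3 in WT (log2 difference -0.66, called lower). Its relative Eif5a2 had 0.232 and 0.251 in KO A and KO B, against 0.110 in WT (log2 difference 1.06 ± 0.18, limma, adjusted p = 7.64e-09). The pair differed from WT in opposite directions, with KO A and KO B on the same side of WT for each gene.

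All 6 genes grouped as elongation factors were called, 5 lower and 1 higher. Eef1b2, an exchange subunit of eEF1B, had 3.48 and 4.08 normalised UMIs per cell in KO A and KO B, against 7.29 in WT (log2 difference -0.95 ± 0.11, limma, adjusted p = 8.53e-16). Its partners Eef1g (-0.53) and Eef1d (-0.48) were also called lower. Eef1a1, which delivers aminoacyl-tRNA, had 12.7 and 15.7 in KO A and KO B, against 18.5 in WT (log2 difference -0.39 ± 0.18, limma, adjusted p = 0.0414). This call was lost with edgeR, with TMM scaling, with no filter on low values and with a pseudocount of 0.1, and the sign of Eef1a1 turned (0.10) when KO cluster 5 alone was set against WT cluster 3. Eef2, the translocase, was called lower by a small margin (-0.31 ± 0.14; limma, adjusted p = 0.0332), a call that was lost with no filter. The 1 called higher was Eef1e1, which belongs to the complex of aminoacyl-tRNA synthetases and was grouped here by its symbol. It had 1.26 and 1.23 in KO A and KO B, against 0.650 in WT (log2 difference 0.93).

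The enzymes that act on elongation factors went both ways. Eef2k, the kinase that inhibits eEF2, had 0.262 and 0.270 normalised UMIs per cell in KO A and KO B, against 0.129 in WT (log2 difference 0.99 ± 0.17, limma, adjusted p = 2.23e-08). Eef1akmt1, a lysine methyltransferase of eEF1A, had 0.323 and 0.410 in KO A and KO B, against 0.168 in WT (log2 difference 1.07). Eef1akmt2, another such enzyme, had 0.405 and 0.417 in KO A and KO B, against 0.779 in WT (log2 difference -0.90). Eef1akmt4 was called lower (-0.65) and Eef2kmt did not pass (-0.25 ± 0.17). Within each of these genes the KO libraries lay on 1 side of WT.

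In cluster 2, where both genotypes had many cells (529 KO A, 814 KO B and 654 WT), few members were called. Eif4g1 was called higher in KO, and Eif3e and Eif2s3y were called lower, 3 of 62 members, while 4.3% of the 9435 genes tested were called (2.87% higher and 1.43% lower). Eif4g1 had 3.31 and 3.26 normalised UMIs per cell in KO A and KO B, against 2.34 in WT (log2 difference 0.48 ± 0.12, limma, adjusted p = 0.0468). Eif3e had 1.83 and 2.12 in KO A and KO B, against 2.89 in WT (log2 difference -0.55 ± 0.13, limma, adjusted p = 0.0384). Eif2s3y had 1.02 and 1.16 in KO A and KO B, against 1.55 in WT (log2 difference -0.50 ± 0.12, limma, adjusted p = 0.0438). KO A and KO B lay on the same side of WT for all 3 genes. All 3 calls were lost with DESeq2, with no filter on low values and when the cells called doublets were left out. EdgeR kept all 3 and called 1 member higher and 12 lower in all, beside 763 higher and 649 lower over all 9435 genes.

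Most members that were not called in cluster 2 had a log2 difference below 0. Of the 62 members, 48 (77.4%) were below 0, beside 46.3% of all genes tested, and the median was -0.18, beside 0.027 over all genes. An unadjusted p under 0.05 was found for 16 members (25.8%), beside 24.2% of all genes. All 6 elongation factors were below 0 (median -0.21), as were 12 of 14 eIF3 genes (median -0.21), without any elongation factor passing. These counts hold for normalised UMIs per cell. In CPM, Eif3c, Eif3d and Eif3g stood above WT in both KO libraries, Eif3c at 883 and 898 CPM, against 864 CPM in WT. Eef2 stood at 973 CPM in KO A and 905 CPM in KO B, against 965 CPM in WT. Eef1a1 stood at 1649 CPM in KO A and 1889 CPM in KO B, against 2438 CPM in WT, and its log2 difference in normalised UMIs per cell was -0.55 ± 0.27. Eif2s1 had 1.86 and 2.32 normalised UMIs per cell in KO A and KO B, against 3.03 in WT (-0.54 ± 0.14; limma, adjusted p = 0.0531). Eif2s2 had 3.90 and 4.17 in KO A and KO B, against 4.05 in WT, so that WT lay between the KO libraries. Over all genes 66.7% of the calls were higher in KO, and 56.2% with TMM scaling. KO cells of cluster 2 were shallower (median 9669 and 11798 UMIs in KO A and KO B, against 14305.5 in WT) and had a higher mitochondrial share (9.79% and 7.03%, against 5.68% in WT). Their 8 leptotene-zygotene markers summed to 1318 CPM in KO A and 1535 CPM in KO B, against 1959 CPM in WT, and none was at 0. The 5 differentiating spermatogonia markers, none at 0, summed to 989 CPM in KO A and 1036 CPM in KO B, against 695 CPM in WT. The 7 undifferentiated spermatogonia markers, with Gfra1 at 0 in all 3 libraries, summed to 50.9 CPM in KO A and 48.3 CPM in KO B, against 30.9 CPM in WT. The 2 globin genes measured reached 444 CPM in KO A and 1.07 CPM in KO B, against 0.619 CPM in WT. In cluster 2, 1 KO A cell, 0 KO B cells and 0 WT cells held at least 10 UMIs of myoid, stromal or globin genes. All 3 calls were kept when such cells were left out. The part of the depth, mitochondrial and other marker values in the members' differences was not tested.

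The difference between KO and WT was itself compared between clusters 3 to 5 and cluster 2, both measured on the same 3 libraries. It was larger (more positive) in clusters 3 to 5 for 17 of 62 members and smaller for 8, while 44.9% of 8911 genes passed (26.9% and 18%). Eif4ebp1 stood out, with 1.83 ± 0.18 on the log2 scale (limma, adjusted p = 0.000941). In cluster 2 it had 1.74 and 1.34 normalised UMIs per cell in KO A and KO B, against 1.33 in WT, with KO B nearly at the WT value. Eif2s2 stood at the other end, with -1.30 ± 0.14 (limma, adjusted p = 0.00110). Eif4a3 had opposite signs, at -0.38 in cluster 2 (not called) and 0.74 in clusters 3 to 5 (difference 1.12 ± 0.16, limma, adjusted p = 0.00236). For Eif2s1, Eif3e and Eif2s3x no such difference was called. With no filter on low values 3 of these 25 calls were left, beside 326 larger and 228 smaller over all 13904 genes.

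**Figure D2:**
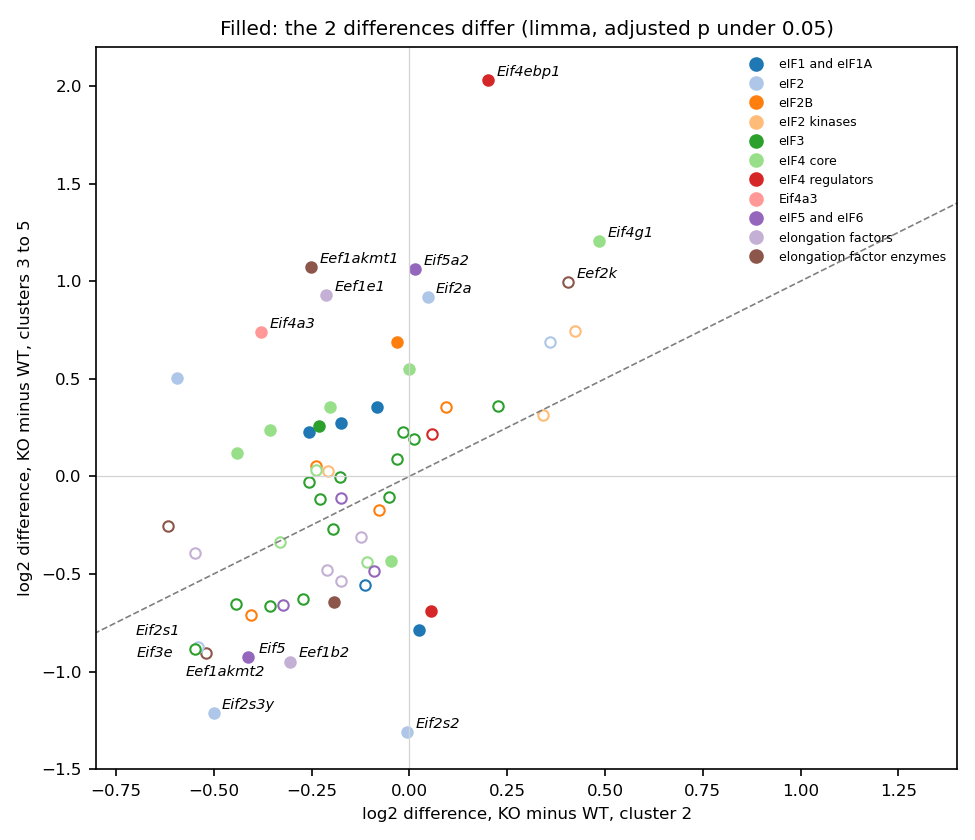
Log2 difference between KO and WT of each tested member in cluster 2 (horizontal axis) and in clusters 3 to 5 (vertical axis), coloured by group; filled points are the members whose 2 differences differed (limma, adjusted p under 0.05), open points are those that did not pass, and the dashed line marks equal differences. Eif4ebp1 (0.20 and 2.03) and Eif2s2 (-0.0061 and -1.31) lie farthest from the line in opposite directions.

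Levels in single clusters showed where these differences lay. They are given as CPM of summed UMIs with 95% exact Poisson intervals in the plots, which cover counting error only, and without a test, since the clusters were made from these cells. Eif2s2 stood at 375 and 381 CPM in cluster 2 of KO A and KO B, against 361 CPM in WT. It stood at 478 and 504 CPM in KO cluster 4 and at 539 and 536 CPM in KO cluster 5, against 1113 CPM in WT cluster 3. The WT level in cluster 3 was above that of each other cluster and library. Eif2s1 stood at 235 and 245 CPM in KO cluster 4 and at 403 and 393 CPM in KO cluster 5, against 519 CPM in WT cluster 3. Eif2s3y followed the same order, with 85.6 and 81.5 CPM in KO cluster 4 and 155 and 156 CPM in KO cluster 5, against 242 CPM in WT cluster 3. For both genes, KO cluster 5 lay between KO cluster 4 and WT cluster 3.

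Eif4ebp1 had its lowest level in WT cluster 3. It stood at 184 and 189 CPM in KO cluster 4 and at 125 and 139 CPM in KO cluster 5, against 34.0 CPM in WT cluster 3. In cluster 2 it stood at 164 CPM in KO A and 128 CPM in KO B, against 120 CPM in WT. The intervals of KO A in cluster 5 (116 to 135 CPM) and WT in cluster 2 (113 to 127 CPM) overlapped. Eif4g1 stood at 203 and 183 CPM in KO cluster 4 and at 149 and 164 CPM in KO cluster 5, against 67.0 CPM in WT cluster 3. Eif5 was lower in both KO clusters, at 765 and 736 CPM in KO cluster 4 and 722 and 718 CPM in KO cluster 5, against 1225 CPM in WT cluster 3. The 24 WT cells of cluster 4 (median mitochondrial share 12.3%, 2 called doublets) held 606 CPM of Eif2s2, 106 CPM of Eif4ebp1, 157 CPM of Eif4g1 and 1542 CPM of Eif5. They lay between KO cluster 4 and WT cluster 3 for Eif2s2, Eif4ebp1 and Eif4g1, and above both for Eif5. For Eif2s1 they lay below both, at 220 CPM, with an interval of 165 to 289 CPM that held both KO cluster 4 levels. These levels rest on few UMIs. The interval of Eif2s2 (511 to 714 CPM) overlapped that of KO B in cluster 4 (482 to 527 CPM). That of Eif4ebp1 ran from 68.6 to 156 CPM.

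**Figure D3:**
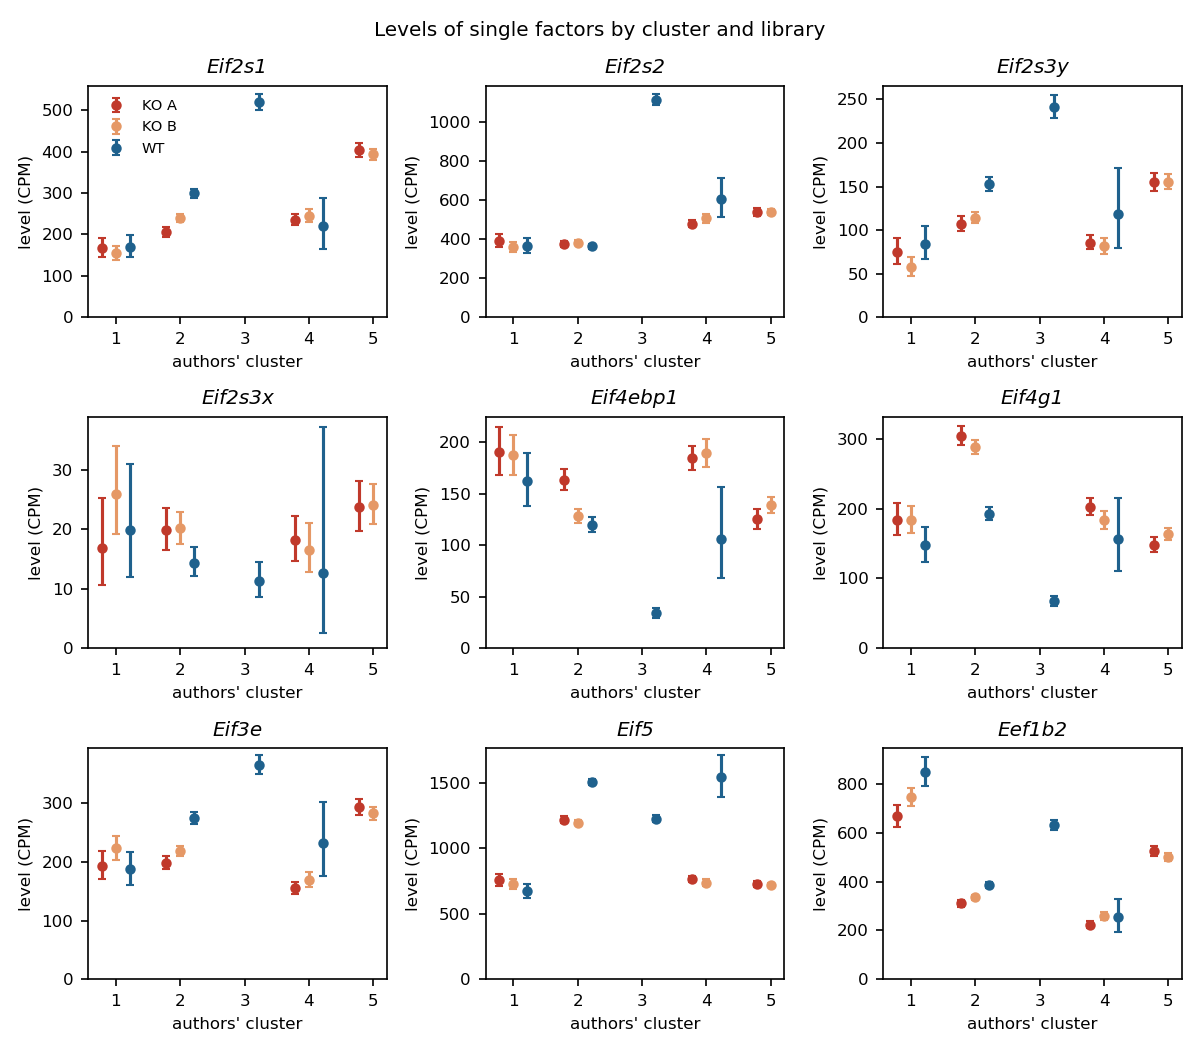
Level of 9 members in CPM of summed UMIs (vertical axes, starting at 0) in each of the authors' clusters 1 to 5 (horizontal axes); points are the KO A, KO B and WT libraries from left to right, bars are 95% exact Poisson intervals for counting error, cluster 3 held 0 KO cells and the single WT cell of cluster 5 is not drawn. Eif2s2 reached 1113 CPM and Eif4ebp1 34.0 CPM in WT cluster 3, the highest and the lowest point of their panels.

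Sums over a group are given as levels with no test. The eIF2 genes summed to 918 and 939 CPM in cluster 4 and 1248 and 1232 CPM in cluster 5 of KO A and KO B, against 1941 CPM in WT cluster 3. In cluster 2 they summed to 812 CPM in KO A and 865 CPM in KO B, against 933 CPM in WT. The eIF3 genes summed to 3374 and 3388 CPM in KO cluster 4 and 3810 and 3803 CPM in KO cluster 5, against 3726 CPM in WT cluster 3. The core eIF4 genes summed to 2339 and 2435 CPM in KO cluster 4 and 2504 and 2530 CPM in KO cluster 5, against 2081 CPM in WT cluster 3. The elongation factors summed to 2451 and 2598 CPM in KO cluster 4 and 3819 and 3830 CPM in KO cluster 5, against 3797 CPM in WT cluster 3. In these sums, KO cluster 5 thus lay close to WT cluster 3 for eIF3 and the elongation factors, and below it for eIF2. Single members did not all follow the sums. Eef1a1 stood at 1914 and 1934 CPM in KO cluster 5, against 1665 CPM in WT cluster 3, and Eef1e1 was also higher. Eef1b2 stood at 526 and 501 CPM, against 634 CPM, and Eef1d, Eef1g and Eef2 were also lower. Eif2s2 stood at 539 and 536 CPM, against 1113 CPM. Eif2s1 and Eif2s3y were also lower, while Eif2a, Eif2d and Eif2s3x were higher. The sums are shares of all UMIs of a cluster and library.

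**Figure D4:**
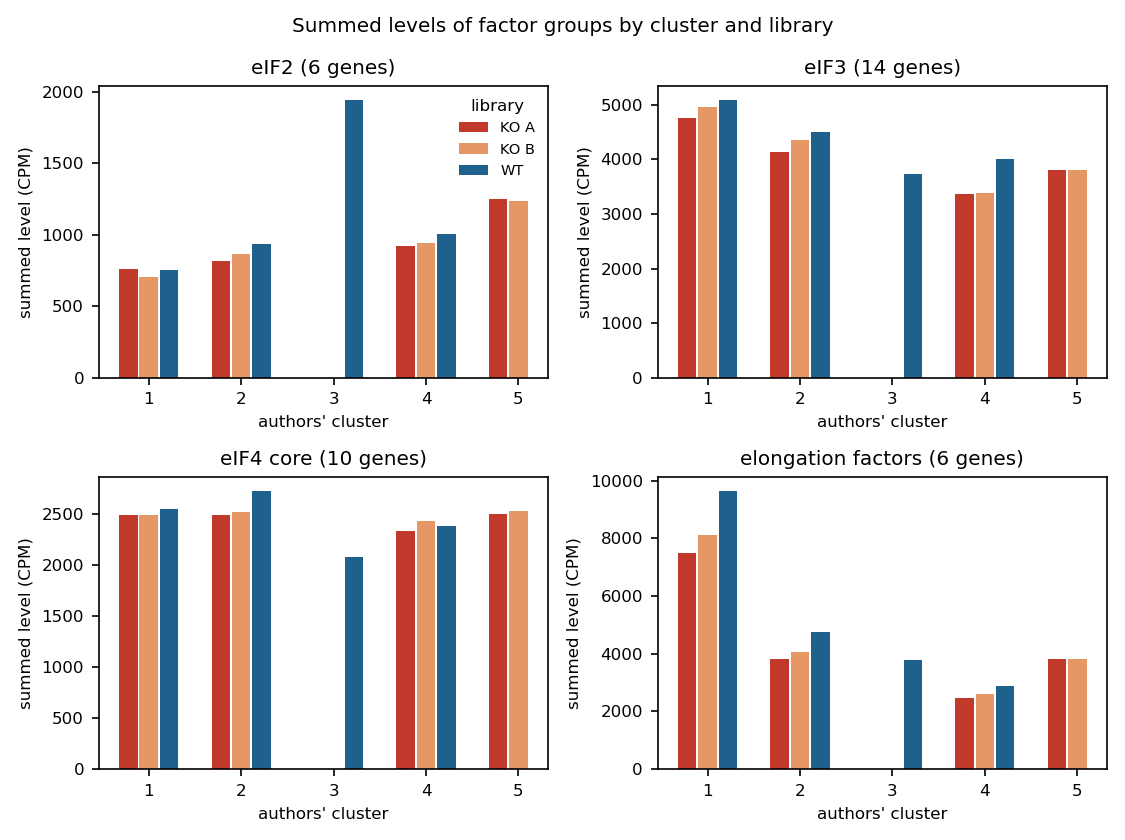
Summed level in CPM (vertical axes, starting at 0) of the eIF2, eIF3, core eIF4 and elongation factor genes in the authors' clusters 1 to 5 (horizontal axes), with bars for KO A, KO B and WT from left to right; cluster 3 held 0 KO cells and the single WT cell of cluster 5 is not drawn. The eIF2 sum is highest in WT cluster 3 at 1941 CPM, and the elongation factor sum is highest in cluster 1, at 7509 CPM in KO A, 8108 CPM in KO B and 9632 CPM in WT.

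Within KO, log2 levels of normalised UMIs per cell are set side by side across clusters without a test. From cluster 4 to cluster 5, 44 of 65 members had a higher level in KO A and 44 in KO B, with median differences of 0.23 and 0.18. All 6 eIF2 genes were among them in each library, and 9 of 14 eIF3 genes. Eif2d in KO B was nearly level, at 17.3 CPM in cluster 4 and 17.1 CPM in cluster 5, slightly lower on that scale. From cluster 2 to cluster 4, all 6 elongation factors were lower in KO A and in KO B (medians -0.49 and -0.54). Eef1a1, for example, stood at 1649 and 1889 CPM in cluster 2 and at 853 and 1009 CPM in cluster 4 of KO A and KO B. In WT, 20 of 65 members were higher in cluster 3 than in cluster 2, among them Eif2s1, Eif2s2 and Eif2s3y, at 519, 1113 and 242 CPM in cluster 3. Shares over all genes are not given for these steps, so the counts are not read as particular to the members. Depth differed too. KO A held 5025032 UMIs over 592 cells in cluster 4 and 5493201 UMIs over 335 cells in cluster 5. KO B held 3940439 UMIs over 441 cells and 8310622 UMIs over 510 cells. The part of depth in these steps was not tested.

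In cluster 1, where 2.84% of 11180 genes were called (0.644% higher and 2.2% lower), 0 of 65 members were called by limma, 0 by edgeR and 0 by DESeq2, and 11 had an unadjusted p under 0.05 with limma. Eif5a2 had the smallest adjusted p of these 11, with 0.931 and 0.836 normalised UMIs per cell in KO A and KO B, against 0.514 in WT (limma, adjusted p = 0.0526). Eef1a1 had 40.7 and 48.4 in KO A and KO B, against 71.1 in WT (-0.68 ± 0.22). The cluster held 66, 90 and 45 cells in KO A, KO B and WT. The 5 peritubular myoid markers summed there to 1291 CPM in KO A and 1546 CPM in KO B, against 2769 CPM in WT, and none was at 0. Their part in these values was not tested beyond leaving out the cells with at least 10 UMIs of myoid, stromal or globin genes. Without those cells, limma called 2 members higher (Eif2ak4 and Eif5a2) and 3 lower (Eef1a1, Eef1b2 and Eif3h). In that setting 137 of all 10672 genes tested were called higher and 265 lower.

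Over all cells, in which the mix of clusters also enters, 7 members were called higher and 15 lower, while 33.1% of 9637 genes were called (18.3% higher and 14.8% lower). Eif4ebp1 had 1.69 and 1.53 normalised UMIs per cell in KO A and KO B, against 0.972 in WT (log2 difference 0.72 ± 0.11, limma, adjusted p = 2.96e-05). Eif2s3y had 1.08 and 1.19 in KO A and KO B, against 2.01 in WT (log2 difference -0.82 ± 0.11, limma, adjusted p = 4.90e-06). Both KO libraries lay on the same side of WT for each gene. Eif4g1, Eif2s3x, Eif2ak3, Eef2k, Eif4h and Eif2a were the other genes called higher. Eif5, Eif2s2, Eif3e, Eif2s1, Eef1akmt2 and Eef1b2 led those called lower, and 4 of 14 eIF3 genes were among them. With DESeq2, 2 members were called higher, beside 561 of all 9637 genes. All comparisons share the single WT library.

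Other genes of the pathway were read in lists. Over all genes tested, 66.5% were called in clusters 3 to 5 (37.4% higher and 29.1% lower) and 4.3% in cluster 2. The list counts are not read as particular to the pathway. In clusters 3 to 5, 3 of 9 cap, tail and scanning partners were called higher (Pabpc4, Ddx3x and Larp1) and 2 lower (Larp4 and Paip2b). Pabpc4, a poly(A)-binding protein, had 0.605 and 0.601 normalised UMIs per cell in KO A and KO B, against 0.131 in WT (log2 difference 2.11 ± 0.14, limma, adjusted p = 9.92e-49), and was the sole list gene called in cluster 2. Ddx3x, a helicase of scanning, had 0.163 and 0.215 in KO A and KO B, against 0.0558 in WT. Of 6 tested genes of eIF2 control, Ddit3, Atf4, Abcf1 and Gcn1l1 were called higher and Ppp1r15a, which directs a phosphatase to eIF2, lower. Atf4, the transcription factor whose mRNA is translated when eIF2 is phosphorylated, had 0.818 and 0.876 in KO A and KO B, against 0.469 in WT (log2 difference 0.84). Ppp1r15a had 0.321 and 0.288 in KO A and KO B, against 0.728 in WT (log2 difference -1.23). Of 11 mTORC1 genes, 5 were called higher (Tsc2, Mknk1, Rps6ka1, Rheb and Rps6kb2) and 3 lower (Rps6, Tsc1 and Rptor). Of 6 release and recycling genes, Gspt1 was called higher and Etf1 lower. Of 8 mitochondrial translation factors, Tsfm was called higher and Mrrf lower. Of 8 hypusine and diphthamide enzymes, 1 was called higher and 3 lower. Dhps, which begins the hypusine of eIF5A, had 1.74 and 1.78 in KO A and KO B, against 3.46 in WT (log2 difference -0.98). Eif5a was also lower, while Eif5a2 was higher. Dohh of the same list did not pass, with 0.906 and 0.927 in KO A and KO B, against 0.796 in WT. In each of these lists the calls ran in both directions.

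The gene table also holds a U-motif score that the authors deposited for each gene; the labels do not say how it was computed. Its median was 0.014 over the 65 members, beside 0.011 over all genes. It was 0.014 over members called higher in KO in clusters 3 to 5, 0.018 over those called lower and 0.0115 over those that did not pass. Eif2ak4 (0.049), Eef1a1 (0.041), Eif3m (0.038) and Eif3k (0.037) had the highest scores, and 2.13% of all genes scored at or above Eef1a1. Eef1d scored 0. The middle range of the 65 scores, from the lower to the upper quartile, ran from 0.008 to 0.024, and the medians were not tested.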

How the data were processed

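Single-cell libraries were made from 4N testis cells of postnatal day 10. The submitters' processing notes name Cell Ranger 3.0.2, Scanpy and the build mm10/GRCm38. For 4528 cells and 14103 genes, the authors deposited the natural log of 1 plus the count over the cell's size factor. Their deposited table of cells lists the size factor (a score), UMI and gene counts and mitochondrial fraction; the deposited gene table gives the U-motif score. Genotype and sample number in that table placed cells in libraries, and neither KO library could be matched to 1 KO title. Undoing the log gave whole counts for 100% of values above 0, within 0.001, and 99.9% of the deposited UMIs.

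Normalised UMIs per cell were tested with limma 3.58.1 in R 4.3.3 (trend, 1 residual degree of freedom, Benjamini-Hochberg over all genes tested) and tested on simulated data; alternatives on summed recovered counts used edgeR 4.0.16 and DESeq2 1.42.0. Because the deposited unit was the natural log, limma and not a count test gave the main result. Doublets were called with Scrublet in Scanpy 1.11.5 (5 KO A, 11 KO B and 6 WT cells) and kept, with alternatives without them. Levels are CPM of summed counts with 95% exact Poisson intervals, for clusters of at least 20 cells. Other alternatives changed the pseudocount (0.1), the filter, the scaling (TMM), the cells kept and the clusters joined.

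Per-library values are given for the 5 called members of largest change in each direction with a mean of at least 10 CPM, the most abundant member of each group, fixed pairs of related genes, and others that illustrate a group. The members and lists were chosen with earlier results of these data known. All 65 IDs matched the name table. Promoters are RefSeq's (GRCm38.p6), found for 52 of 65 members. Bulk RNA-seq and iCLIP samples were not used here.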

Additional observations from a re-analysis of the deposited data

Results flagged for a closer look

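The difference between KO and WT was itself different between clusters 3 to 5 and cluster 2 for 25 of 62 members, by its own limma test at an adjusted p under 0.05. The values are log2 differences in clusters 3 to 5 minus those in cluster 2. Among genes with an Eif4 symbol the value was 1.83 for Eif4ebp1, 1.12 for Eif4a3, 0.72 for Eif4g1, 0.59 for Eif4a1, 0.56 for Eif4e, 0.56 for Eif4g3, 0.55 for Eif4h, -0.39 for Eif4b and -0.75 for Eif4enif1. Among eIF2 and eIF2B genes it was 1.10 for Eif2d, 0.87 for Eif2a, 0.72 for Eif2b2, -0.71 for Eif2s3y and -1.30 for Eif2s2. Among the other initiation factors it was 1.05 for Eif5a2, 0.49 for Eif3j2, 0.48 for Eif1, 0.45 for Eif1b, 0.44 for Eif1ax, -0.51 for Eif5 and -0.81 for Eif1a. Among elongation factors and their enzymes it was 1.33 for Eef1akmt1, 1.14 for Eef1e1, -0.45 for Eef1akmt4 and -0.64 for Eef1b2. Clusters 3 to 5 hold different clusters in KO and in WT, so these values also carry the difference between clusters.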

How the results depend on the processing

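No paired analysis was possible because the 1 WT library can share at most 1 replicate number with the 2 KO libraries. In cluster 2, members called higher in KO numbered 0 with no filter, 2 with TMM scaling, 0 without doublets and 0 with DESeq2 (1 as reported). Members called lower numbered 0, 11, 0 and 0 under the same settings (2 as reported). They numbered 5 without cells holding myoid, stromal or globin UMIs and 12 with edgeR. Over all genes, 2 were higher and 1 lower with no filter, and 812 and 633 with TMM scaling. Without doublets 92 were higher and 21 lower, and with DESeq2 26 and 24. Without cells holding myoid, stromal or globin UMIs 355 were higher and 220 lower, and with edgeR 763 and 649. In clusters 3 to 5, DESeq2 called 10 members higher (19 as reported), beside 1720 of all 9299 genes. The median was -0.12 for KO cluster 4 and 0.062 for KO cluster 5 against WT cluster 3. In that second setting Eef1a1 (0.10) and Eif3a (0.024) turned sign. An alternative chosen after seeing the data, KO clusters 4 and 5 against WT cluster 3 without the other WT cells, called 20 higher and 25 lower. Over all 9299 genes it called 3570 higher and 2746 lower. Over all cells, DESeq2 called 2 members higher, beside 561 of all 9637 genes, and equal weights for the clusters gave a median of -0.13. In cluster 1, members called higher numbered 1 with a pseudocount of 0.1, 1 with TMM scaling and 2 without doublets. Without myoid, stromal or globin cells 2 were higher and 3 lower. Over all genes, 74 were higher with a pseudocount of 0.1, 102 with TMM scaling and 168 without doublets. Without myoid, stromal or globin cells 137 of all 10672 genes were higher and 265 lower. For the difference between comparisons, 17 were smaller with a pseudocount of 0.1, 2 were larger and 1 smaller with no filter, and the median was 0.095 with TMM scaling. Over all genes, 1922 were smaller with a pseudocount of 0.1, and 326 were larger and 228 smaller with no filter. Leaving out either KO library, without a test since no residual degree of freedom was left, gave medians of -0.20 to -0.12 in cluster 2, -0.059 to 0.0068 in clusters 3 to 5, -0.17 to -0.13 over all cells, -0.14 to -0.048 in cluster 1 and 0.094 to 0.15 for the difference. Over single called members and the tested settings, 667 results kept direction and call, 96 lost the call and 2 turned. The cause was not tested. The 667 include 44 results in clusters 3 to 5 without cells holding myoid, stromal or globin UMIs. That setting removed no cell there, so these repeat the main result. With 1 KO library left out, 188 values kept their direction. They belong to members already called on both KO libraries against the same WT library, so their direction was nearly fixed beforehand. With 1 WT library, the spread between WT animals is unknown, and low genes such as Eif2s3x and Eif2ak3 rest on few UMIs per cell.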
